A study of Homo sapiens with 4 samples.

Results

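The transcripts described here are those of 10 human genes of the KMT2 and SET histone methyltransferase group (KMT2A, KMT2B, KMT2C, KMT2D, KMT2E, SETD1A, SETD1B, SETD2, SETD5 and NSD1) in MDA-MB-231, an established triple negative breast cancer cell line. The study mapped N6-methyladenosine (m6A) on poly(A) RNA of these cells by m6A-seq, in which RNA fragments enriched with an anti-m6A antibody (IP) are sequenced beside fragments that were not enriched (input). Its 4 libraries, 2 IP and 2 input, all came from cells labelled shNS with no other treatment named, and the treatment field of the IP libraries reads IP-YTHDC1 although title and protocol describe the m6A antibody. The data are 1 list of 20261 peaks on 10140 gene IDs, combined over the libraries, so neither a spread between replicates nor a read depth stands behind any value. The genes were chosen by name with their peaks in this list already known, and their peaks were found by matching the Ensembl ID of each peak to a gene symbol. They carried 55 peaks. Every value below is therefore a description, and no test was made.

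Most histone lysine methyltransferases transfer methyl groups to lysines in histone tails through a catalytic SET domain. KMT2A, KMT2B, KMT2C, KMT2D, SETD1A and SETD1B are the alternative catalytic subunits of the COMPASS-like complexes that methylate H3K4, a mark of promoters and enhancers. SETD2 and NSD1 methylate H3K36, SETD2 in gene bodies. KMT2E and SETD5 are close relatives of each other whose SET domains are not established histone methyltransferases. m6A is placed on nascent mRNA by the METTL3 and METTL14 complex, is found mostly near stop codons, in 3′UTRs and in long internal exons, and has been linked to the H3K36 mark of SETD2 through binding of METTL14 to that mark. Most of these proteins are very large, and several of their genes hold unusually long internal exons.

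All 10 genes had at least 1 peak, whereas 42.7% of 19149 protein-coding genes did. Since the list holds more peaks on the minus strand, each gene was set beside genes of its own strand. Among protein-coding genes whose strand the RefSeq promoter table gives, 57.5% on the minus strand and 30.3% on the plus strand had a peak. As the genes were chosen with the list in view, nothing is read from their count against these shares. The minus-strand genes KMT2C and KMT2D had 12 peaks each and SETD2 had 8. On the plus strand NSD1 had 6 peaks, SETD1B had 4, KMT2B, KMT2E and SETD1A had 3 each, and KMT2A and SETD5 had 2 each. The lowest count on the minus strand was thus above the highest on the plus strand, and 3 minus-strand genes held 32 of the 55 peaks.

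The strength of a peak is given by its listed score, read as the peak caller's p-value for enrichment in IP (the file does not tell it apart from a false discovery rate), so a smaller score is a stronger peak. Among protein-coding genes with a peak, the 5304 on the minus strand carried 2.33 ± 1.64 peaks and the 2869 on the plus strand 1.66 ± 1.06 (mean ± SD over genes), with medians of 2 and 1. Peaks were also stronger on the minus strand, where the median over genes of the best −log10 p was 31.1 against 6 on the plus strand, so strength is ranked below within a strand. In number of peaks, each of the 10 genes lay above the median of its strand. KMT2C and KMT2D had more peaks than 99.8% of minus-strand genes, and SETD2 more than 99.0%. On the plus strand this share was 98.9% for NSD1, 93.9% for SETD1B, 84.3% for KMT2B, KMT2E and SETD1A, and 60.1% for KMT2A and SETD5. With only peaks at or under the median score of the whole list (5.2e-08), 33 of the 55 peaks were left. They lay on 8 of the 10 genes, whereas 27.8% of all protein-coding genes had such a peak (45.3% on the minus and 12.6% on the plus strand). By peaks, 26 of 32 were left on the minus strand, beside 7051 of 11505 peaks of other protein-coding genes inside their RefSeq span. On the plus strand it was 7 of 23 beside 1348 of 4379, about the same share. Of the 10 genes, 5 were still above the median number of peaks of their strand. KMT2A and KMT2E kept no peak at this score.

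**Figure D1:**
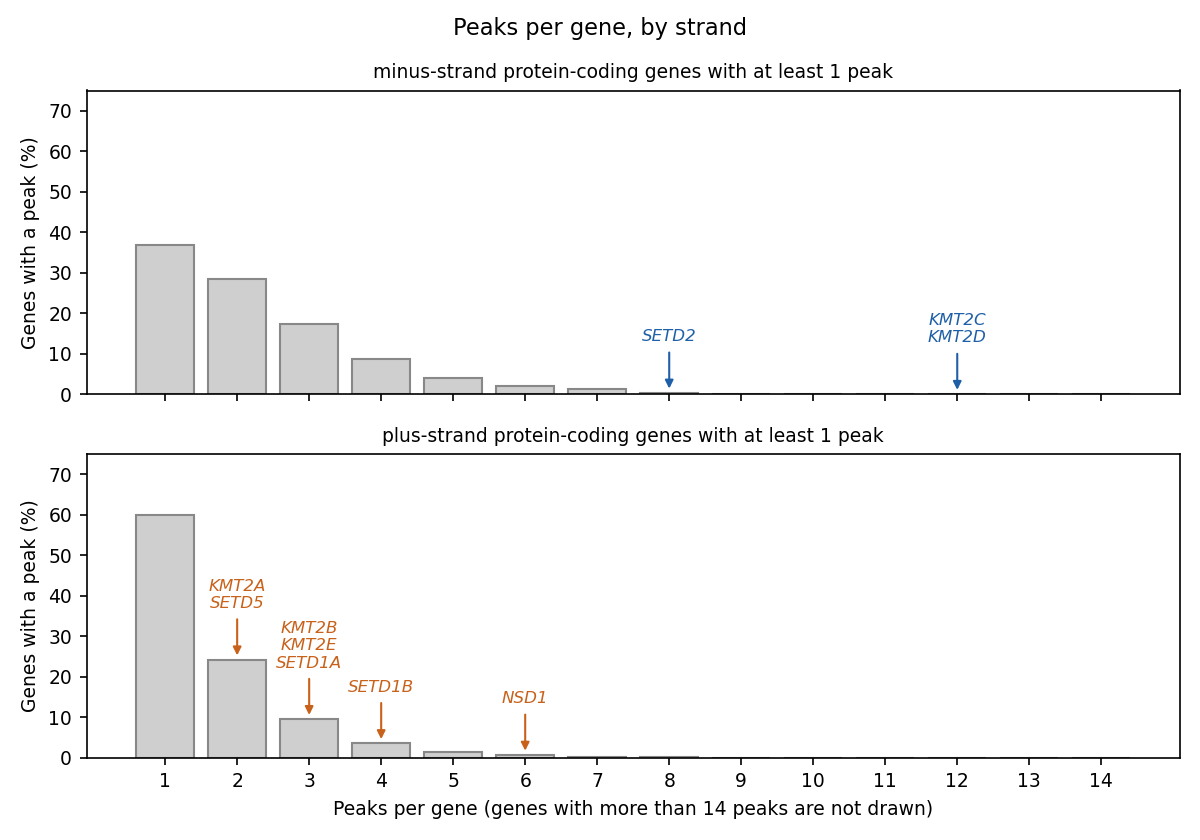
Share of protein-coding genes with a peak (y axis, %) by the number of peaks per gene (x axis), for minus-strand genes (upper panel) and plus-strand genes (lower panel), with arrows at the 10 genes. KMT2C and KMT2D at 12 peaks and SETD2 at 8 lie in the thin tail of the minus-strand genes, while KMT2A and SETD5 stand at 2 peaks, a class that holds 24.3% of plus-strand genes.

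KMT2D, the H3K4 methyltransferase of enhancers that is mutated in Kabuki syndrome, had the most sequence in peaks. Its 12 peaks (ENSG00000167548.15, hg38 chromosome 12, RefSeq span 49018978 to 49060794, minus strand) held 7870 spliced bases, the most of the 10 genes, and 11 of them were at or under the list median. The strongest peak lay towards the 5′ end, at 21.5% of the span (49051332 to 49052291), in 1 block of 960 bases with a score of 1e-193. The next in strength was a peak of 931 bases at 80.6% of the span (49026398 to 49027808, 1e-166), followed by the most 3′ peak, 661 bases at 93.6% (49021224 to 49022054, 1e-126). The longest block of any of the 10 genes was a KMT2D peak near the middle of the span, 1321 unbroken bases at 54.1% (49037512 to 49038832, 1e-120). Strong peaks therefore stood along most of this gene and were not confined to its 3′ end. A peak of 781 bases at 69.9% of the span had a score of 1e-107, one of 511 bases at 67.4% had 4e-59, and one of 421 bases at 48.4% had 7.9e-41. Of the other 5 peaks, 4 scored from 4e-24 to 1.6e-11, and the weakest, 151 bases at 40.0% of the span, scored 6.2e-07. Its most 3′ peak stopped 2246 bases short of the gene's 3′ end.

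KMT2C, the closest relative of KMT2D, also had 12 peaks, and they were weaker (ENSG00000055609.18, hg38 chromosome 7, 152134925 to 152436003, minus strand). They held 3845 spliced bases. The strongest score was 6.3e-37, for a peak of 810 bases in blocks of 619 and 191 bases separated by 3044 bases (152158882 to 152162735), and 52.8% of minus-strand genes had a weaker best peak, against 86.4% for KMT2D. The span of KMT2C is 301079 bases and that of KMT2D 41817 bases. Of the 12 KMT2C peaks, 11 lay from 84.3% to 99.4% of the span, introns included. The most 5′ of these 11 ended 47249 bases before the gene's 3′ end, so this part is itself longer than the span of KMT2D. The remaining one was at 62.4% (152248070 to 152248369, 300 bases, 2.9e-07). The second strongest peak, 480 bases at 95.5% of the span, scored 2e-29, and the most 3′ peak, 270 bases ending 1736 bases before the end of the span, scored 4e-14. The other peaks scored from 2.5e-18 to 0.00014. RefSeq lists 4 pseudogenes of KMT2C, none of which had a peak, and how reads shared with such copies were placed is not known. Copies of the other genes were not looked for.

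SETD2, the enzyme of H3K36 trimethylation, carried 8 peaks with 3274 spliced bases (ENSG00000181555.20, hg38 chromosome 3, 47016436 to 47164840, minus strand). Its strongest peak was 630 bases in 1 block at 54.4% of the span (47083750 to 47084379, 1e-179), stronger than the best peak of 85.0% of minus-strand genes. The second lay at the 3′ end, 420 bases ending 353 bases before the end of the span (47016789 to 47017208, 7.9e-76), the closest approach to a 3′ end among the 55 peaks. Towards the 5′ end, 5 single-block peaks stood between 27.5% and 29.8% of the span, within 47120212 to 47123988. From 5′ to 3′ they were 61, 331, 271, 210 and 751 bases long, with scores of 0.0004, 1.6e-25, 1.5e-06, 1.6e-08 and 1e-51. This group thus held both the longest and the shortest peak of the gene. The remaining peak had blocks of 105 and 495 bases separated by 4669 bases (47056996 to 47062264, 4e-25).

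Among the 4 H3K4 enzymes on the plus strand, KMT2B had the strongest best peak and KMT2A the weakest. KMT2B (ENSG00000272333.6, hg38 chromosome 19, 35718003 to 35738878) had a peak of 751 bases in 1 block beginning 1838 bases after the 5′ end (35719841 to 35720591), with a score of 2.5e-56. A best peak this strong exceeded that of 92.7% of plus-strand genes. Its other peaks were 91 bases (0.00058) and 211 bases long (4.5e-07). KMT2A, the founding member of the family and the target of leukemic MLL translocations (ENSG00000118058.22, hg38 chromosome 11, 118436492 to 118526832), had 2 peaks of 181 bases each, at 41.3% and 76.4% of the span, with scores of 0.0003 and 8.1e-06. The first of these lay wholly within a peak of another plus-strand gene ID (ENSG00000285827.1, 211 bases, 0.00019), so the list does not say which gene it belongs to. Its best peak exceeded that of 42.1% of plus-strand genes.

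SETD1A and SETD1B, the subunits that supply most H3K4 trimethylation at promoters, had best peaks that exceeded those of 76.8% and 63.5% of plus-strand genes. SETD1A (ENSG00000099381.18, hg38 chromosome 16, 30957754 to 30984664) had a peak of 330 bases at 27.4% of the span (7.9e-15), another of 330 bases at 81.1% (5.2e-09) and one of 150 bases at 82.9% (9.3e-06). SETD1B (ENSG00000139718.10, hg38 chromosome 12, 121790155 to 121832656) had 4 peaks between 46.3% and 78.4%, of 211 bases (1.4e-05), 240 bases (5.9e-09), 120 bases (0.00015) and 479 bases (5.6e-06). In neither gene did a peak reach the final 10% of the span. SETD1B and KMT2D have nearly the same span, 42502 and 41817 bases, yet SETD1B on the plus strand had 4 peaks with 1050 bases and KMT2D on the minus strand 12 with 7870. The part of strand in this difference was not tested.

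The related genes KMT2E and SETD5 had peaks in the final 10% of their spans alone. KMT2E (ENSG00000005483.21, hg38 chromosome 7, 105014205 to 105115019) had 3 peaks between 97.6% and 98.3% of the span, of 181 bases (1.9e-06), 91 bases (0.00058) and 151 bases (2.8e-05). SETD5 (ENSG00000168137.17, hg38 chromosome 3, 9397615 to 9478154) had a peak of 211 bases at 90.7% (3.3e-09) and one of 691 bases at 97.3% (9475647 to 9476337, 1.3e-12). The SETD5 peaks were the stronger ones, and both were at or under the list median. NSD1, the H3K36 dimethyltransferase mutated in Sotos syndrome (ENSG00000165671.20, hg38 chromosome 5, 177131798 to 177300213), carried its 6 peaks in 3 places. A peak of 301 bases lay 3765 bases after the 5′ end (177135563 to 177135863, 2.7e-08), the only one of the 55 in the first 10% of a span. A pair at 46.4% and 47.5% scored 0.00012 and 5.8e-07, and 3 peaks between 96.4% and 97.1% scored 6.5e-07, 8.3e-06 and 9.5e-07. NSD1 thus ranked higher by number than by strength. Its best peak was stronger than that of 60.2% of plus-strand genes, and its number of peaks was above that of 98.9%.

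**Figure D2:**
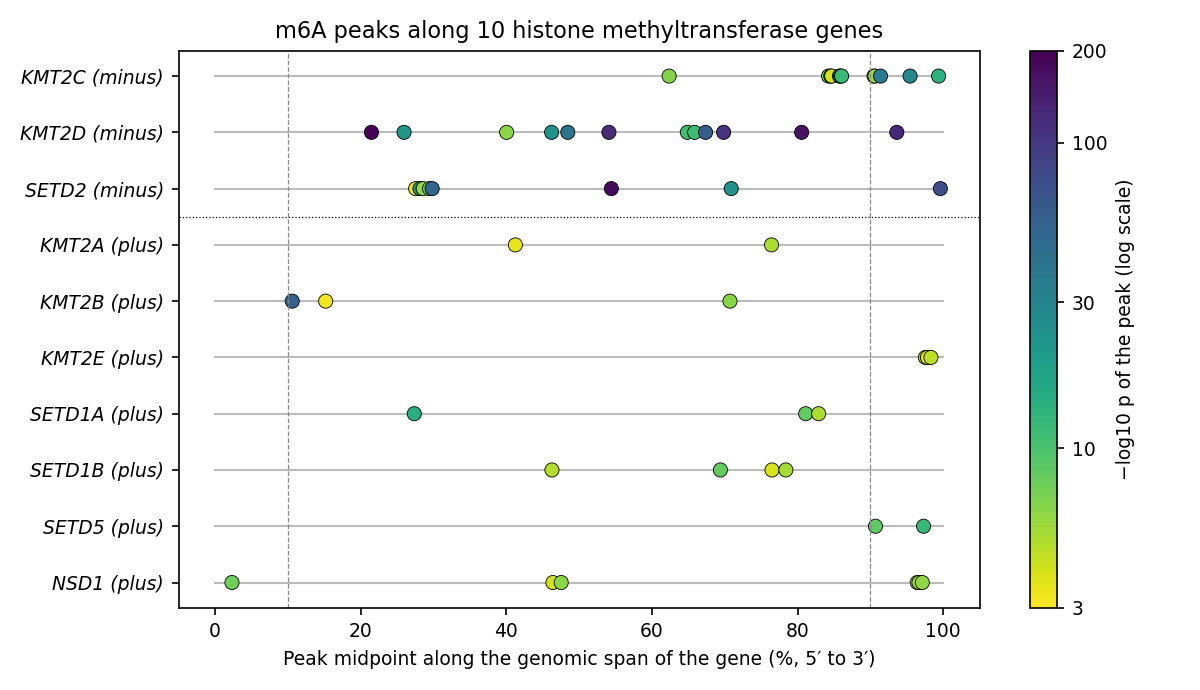
Midpoint of each of the 55 peaks along the genomic span of its gene (x axis, % from 5′ to 3′, introns included), coloured by −log10 p on a log scale, with dashed lines at the first and the final 10% and the minus-strand genes above the dotted line. Peaks of KMT2D run from 21.5% to 93.6% of the span, those of KMT2E start at 97.6%, and KMT2C, SETD2 and NSD1 show tight groups.

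To relate the peaks to gene architecture, the midpoint of each peak was placed on the span of its gene. Of the 55 peaks, 15 (27.3%, 95% Wilson interval 17.3 to 40.2%) lay in the final 10%, 39 (70.9%, 57.9 to 81.2%) in the middle 80% and 1 (1.82%, 0.322 to 9.61%) in the first 10%. These intervals treat peaks as independent, which peaks of one gene are not, and cover counting error only. On the minus strand, 7 of 32 peaks (21.9%, 11.0 to 38.8%) were in the final 10%, beside 37.8% of 11505 peaks of other minus-strand protein-coding genes. On the plus strand it was 8 of 23 (34.8%, 18.8 to 55.1%) beside 36.4% of 4379. On both strands the interval holds the reference share. Reference peaks were limited to those wholly inside the RefSeq span of their gene. Without this limit, and with the 10 genes included, there were 12374 on the minus strand and 4768 on the plus strand. What peaks reaching past a span would add to the reference shares was not tested. In the middle 80%, the minus strand had 25 of 32 peaks (78.1%, 61.2 to 89.0%), above the 50.1% of reference peaks. The plus strand had 14 of 23 there (60.9%, 40.8 to 77.8%) beside 50.3%, which its interval holds. In other minus-strand genes with 8 to 12 peaks, 31.0% of peaks were in the final 10%. The peaks in the final 10% were unevenly shared among the genes. KMT2C had 5 of the 15, KMT2E and NSD1 had 3 each, SETD5 had 2, KMT2D and SETD2 had 1 each, and KMT2A, KMT2B, SETD1A and SETD1B had none. The minus-strand share in the final 10% rested on KMT2C, without which it was 2 of 20 (10.0%). Introns count in the span, and the 5 KMT2C peaks lay 1736 to 28410 bases before the 3′ end. For this gene the final 10% is therefore not the same as the 3′ end of the transcript. None of the 32 minus-strand peaks was in the first 10%. Were peaks independent, this allows a share of up to 9.38%, taken as 3 divided by 32 and not as a Wilson limit. Of peaks of other minus-strand genes 12.1% were there, or 6.63% in those with 8 to 12 peaks.

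Exons themselves were not analysed here, so long internal exons were read from the peaks. A peak is listed as blocks, each an unbroken stretch of exon, and a block of 300 bases or more shows that exon sequence at least this long is present. Single-block peaks made up 48 of the 55 (87.3%, 76.0 to 93.7%), 25 of 32 on the minus strand beside 80.7% of reference peaks and 23 of 23 on the plus strand beside 87.8%. All 7 peaks of 2 blocks were in KMT2C, KMT2D and SETD2. A long block in the middle 80% of the span was found for 21 of the 55 peaks. On the minus strand this was 17 of 32 (53.1%, 36.4 to 69.1%) beside 21.2% of reference peaks, and 23.9% in the 42 other minus-strand genes with 8 to 12 peaks. On the plus strand it was 4 of 23 (17.4%, 6.98 to 37.1%) beside 8.97% of reference peaks, and 10.1% in the other plus-strand genes with 2 to 6 peaks.

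KMT2D alone held 10 of the 17 peaks with a long block in the middle 80% on the minus strand, SETD2 held 4 and KMT2C 3. At any position, KMT2D had 11 peaks with a long block, KMT2C 6 and SETD2 5. Those of KMT2C in the final 10% lay 13431 to 28410 bases before the 3′ end, so its count depends on introns in the span. Without KMT2D the share in the middle 80% was 7 of 20 (35.0%), and without KMT2C it was 14 of 20 (70.0%). Peaks at or under the list median gave 16 of 26 (61.5%, 42.5 to 77.6%) for the minus-strand genes beside 32.4% of reference peaks. The 4 long blocks in the middle 80% on the plus strand belonged to SETD1A with 2, and KMT2B and SETD1B with 1 each. Without SETD1A the plus-strand share was 2 of 20 (10.0%). The longest block was 1321 bases in KMT2D, 751 in SETD2 and in KMT2B, 691 in SETD5, 619 in KMT2C, 479 in SETD1B, 330 in SETD1A, 301 in NSD1 and 181 in KMT2A and KMT2E. Among plus-strand genes this exceeded the longest block of 98.6% for KMT2B, 97.8% for SETD5, 92.1% for SETD1B, 80.4% for SETD1A, 78.1% for NSD1 and 44.1% for KMT2A and KMT2E. Among minus-strand genes it was 96.5% for KMT2D, 83.6% for SETD2 and 75.4% for KMT2C. Long peaks were also the strong ones. Spearman's rho between spliced length and −log10 p was 0.88 over the 32 minus-strand peaks and 0.83 over the 23 plus-strand peaks, beside 0.81 and 0.84 over reference peaks, and all these peaks came from the same libraries. The part of peak strength in the share of long blocks was not tested beyond the restriction to the list median.

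**Figure D3:**
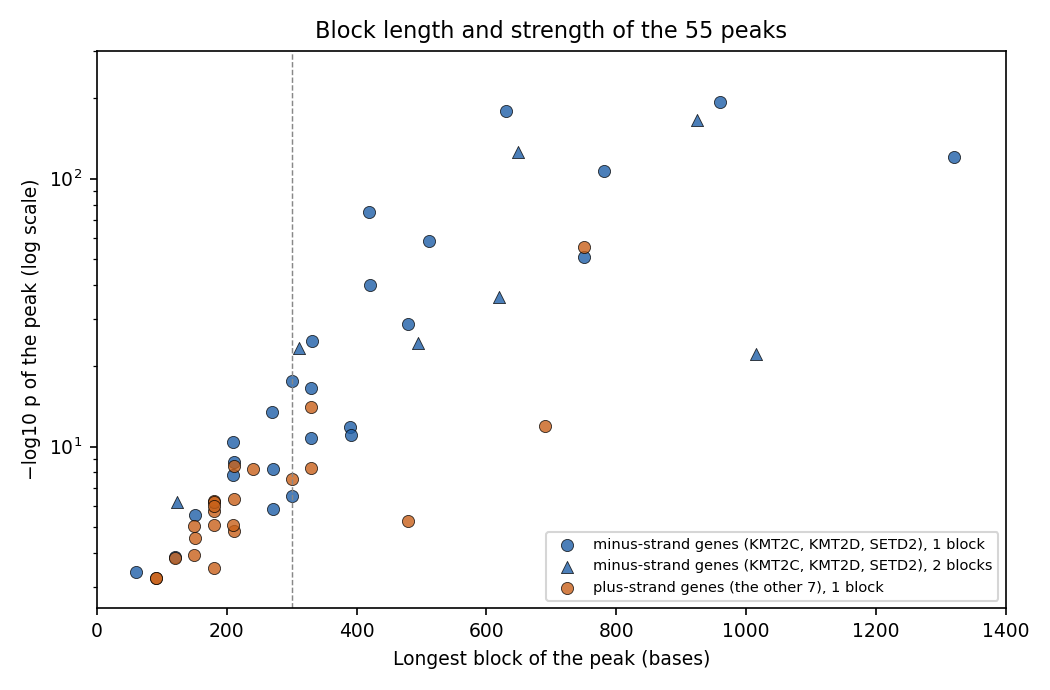
Longest block of each of the 55 peaks (x axis, bases) against its −log10 p (y axis, log scale), with minus-strand genes in blue, plus-strand genes in orange, circles for 1 block and triangles for 2, and a dashed line at 300 bases. The longest block, 1321 bases of KMT2D, scored 1e-120, and the plus-strand peak with the smallest score, 751 bases of KMT2B, scored 2.5e-56.

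Peaks of these genes often stood close together. When neighbouring peaks of a gene at most 1000 bases apart on the genome were taken as a run, 34 of the 55 peaks fell into 13 runs in 8 genes. The exceptions were KMT2A and SETD5. On the minus strand 22 of 32 peaks (68.8%, 51.4 to 82.0%) were in runs, below the 79.8% of peaks in other minus-strand genes with 8 to 12 peaks. On the plus strand it was 12 of 23 (52.2%), beside 60.8% in the 1128 other plus-strand genes with 2 to 6 peaks. Over all reference peaks the shares were 47.8% and 39.6%, so the higher share here was not above that of genes with as many peaks. The longest run of single-block peaks was in KMT2D (49031195 to 49033834), where 4 peaks covered 2013 of 2640 bases (76.3%) with gaps of 59 to 389 bases and scores from 1e-107 to 1.6e-11. In SETD2 a pair separated by 59 bases covered 94.2% of 1020 bases (47120212 to 47121231). KMT2C had 3 runs of 3 peaks each. Joining peaks of a gene up to 150 bases apart left 49 of the 55, and up to 300 bases left 44.

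**Figure D4:**
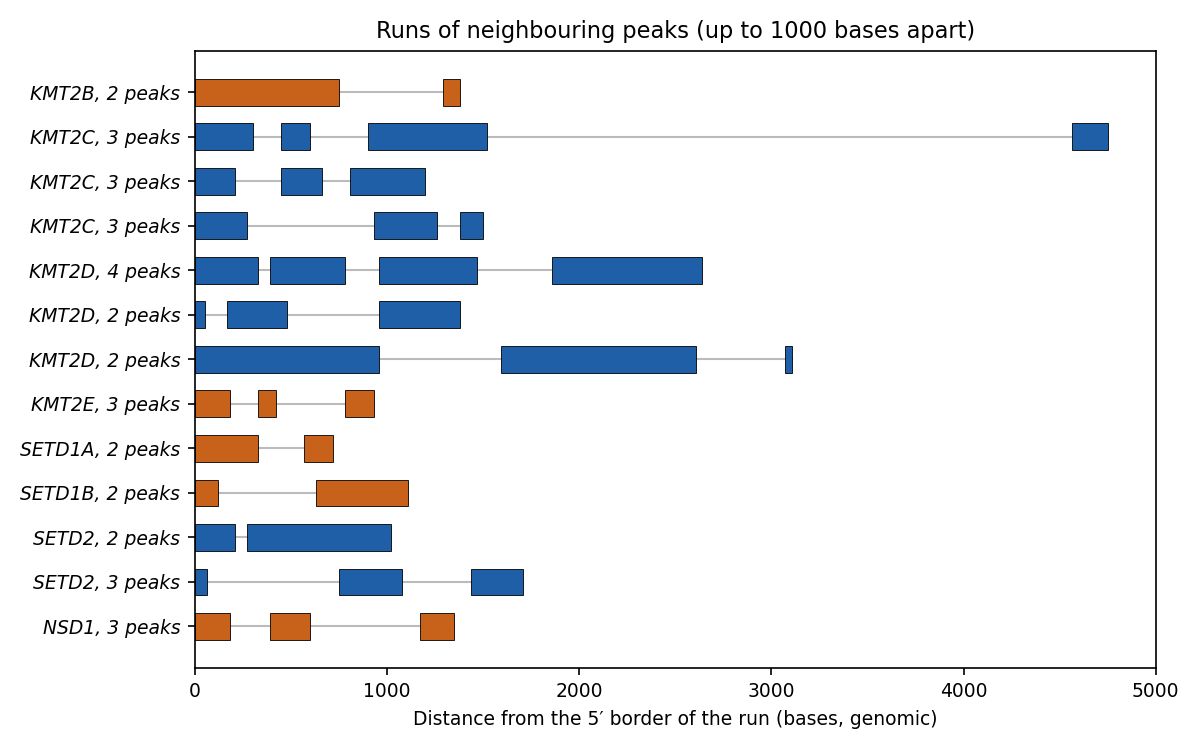
The 13 runs of neighbouring peaks, drawn from the 5′ border of each run (x axis, genomic bases), with peak blocks as bars (blue for minus-strand genes, orange for plus-strand genes) and the sequence between them as lines. The 4 peaks of the KMT2D run cover 2013 of 2640 bases, and the first KMT2C run extends to 4754 bases because its last peak has blocks on both sides of a gap of 3044 bases.

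The spans of the 10 genes ran from 20876 to 301079 bases, and the longest 3, those of KMT2C, NSD1 and SETD2, carried 12, 6 and 8 peaks. Of the other 7 genes only KMT2D had more than 4. Per 10 kb of span there were 2.87 peaks in KMT2D, 1.44 in KMT2B, 1.11 in SETD1A, 0.941 in SETD1B, 0.539 in SETD2 and 0.399 in KMT2C, and fewer in NSD1 (0.356), KMT2E (0.298), SETD5 (0.248) and KMT2A (0.221). Compared with genes of the same strand whose span was at most 25% longer or 20% shorter, KMT2C had more peaks than all 159, KMT2D more than 99.7% of 699 and SETD2 more than 98.9% of 369. The median was 2 peaks in each of these sets. On the plus strand, where the median of each set was 1 peak, the share of like-sized genes with fewer peaks ran from 58.0% of 245 for KMT2A to 99.5% of 192 for NSD1. KMT2D, KMT2C and SETD2 thus had more peaks than nearly all genes of like span. In strength they stood lower, since 88.0%, 62.3% and 88.3% of like-sized genes had a weaker best peak. Spliced transcript length, which decides how much exon a peak can be called on, was not used here.

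None of the 55 peaks shared a base with a peak on the opposite strand. Taken again as 3 divided by the number of peaks, 0 of 32 allows a share of up to 9.38% on the minus strand. On the plus strand 0 of 23 allows up to 13.0%. The shares of reference peaks, 5.34% and 10.1%, lay under these limits. All 55 lay inside the RefSeq span of their gene. The RefSeq promoter table gave 13 start sites for 9 of the genes, all but SETD1B, and no peak touched the 300-base promoter window at any of them. The peak nearest to a 5′ end was that of KMT2B described above. At the 3′ side, 1 peak lay within 1000 bases of the end of its gene and 7 within 3000 bases.

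Other genes of histone lysine methylation were counted in the same way. Of 27 further lysine methyltransferase genes, 21 (77.8%) had a peak and 15 a peak at or under the list median, beside 42.7% and 27.8% of all protein-coding genes. The genes with a peak had a median of 1. The most peaks were on ASH1L, an H3K36 methyltransferase (7 peaks, strongest 1.6e-53), on KMT5B, which methylates H4K20 (6 peaks, 4e-92), and on NSD3, a relative of NSD1 (5 peaks, 1e-291). NSD2 (1e-111) and PRDM2 (4.5e-07), both on the plus strand, also had 5 peaks each. By strand, 10 of 11 minus-strand and 11 of 16 plus-strand genes had a peak. Of protein-coding genes whose strand the promoter table gives, 57.5% on the minus and 30.3% on the plus strand had a peak. Of the 27 genes, those without a peak were KMT5A, PRDM9, SETDB2, SMYD1, SMYD2 and SMYD3.

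Of 16 partners of the KMT2 and SETD1 complexes, 14 (87.5%) had a peak and 11 a peak at or under the list median, beside the same 42.7% and 27.8% of all protein-coding genes, with a median of 2. Of these partners 11 are on the minus strand, where peaks are more frequent, and all 11 had a peak, as did 3 of 4 on the plus strand. The shares over protein-coding genes with a strand in the promoter table were 57.5% and 30.3%. BOD1L1, a partner of SETD1A, had 11 peaks (strongest 7.9e-49, longest block 1110 bases), the coactivator NCOA6 of the KMT2C and KMT2D complexes had 6 (3.2e-99), and HCFC1, a cofactor of SETD1 and KMT2 complexes, had 4 (1e-284, longest block 1318 bases). These 3 genes are on the minus strand, as are PSIP1 and MEN1, which also had 4 peaks each. ASH2L and HCFC2 had none, and ASH2L, for which no strand was given, is not in the counts by strand. Among the opposing enzymes, 16 of 20 histone lysine demethylase genes (80.0%) had a peak and 10 a peak at or under the list median, again beside 42.7% and 27.8%, with a median of 2. By strand these were 8 of 8 minus-strand and 8 of 11 plus-strand genes, again beside 57.5% and 30.3%. With the lists chosen on known results, nothing particular to them is read from these counts. The H3K4 demethylases KDM5A (6 peaks, 1e-146) and KDM5B (5 peaks, 1e-162) and the H3K36 demethylase KDM2B (5 peaks, 1e-118) had the most, all on the minus strand. KDM5C, also on the minus strand, had 5 peaks as well (1e-31). KDM1A, KDM1B, KDM4C and RIOX1 had none, and RIOX1, for which no strand was given, is not in the counts by strand. ASH2L and RIOX1, the genes left out for want of a strand, both had no peak, so the shares by strand lean high. The list gives no expression, so a gene without a peak may be unmethylated, weakly expressed or below detection.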

How the data were processed

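m6A-seq of MDA-MB-231 cells comprised 2 IP and 2 input libraries, grouped by their titles. The authors aligned reads with STAR to GENCODE annotations (hg38 per the labels), called peaks with exomePeak at default parameters and applied fold enrichment and FDR cutoffs. The deposited list gives 1 p-value per peak, in the score column, and other columns with positions and block counts. Depth is unknown, and no column of single-library values was present. Coordinates were written from 1.

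Peaks were assigned to symbols by Ensembl ID (10103 of 10140 matched). Spans came from RefSeq GRCh38.p14. Strand was that of the peaks, and for genes without peaks that of the RefSeq promoter table. Reference genes were protein-coding nuclear genes with 1 RefSeq entry. Position was the peak midpoint along the span. For shares of peaks, reference peaks were those wholly inside the RefSeq span of their gene. Overlap required 1 shared base, and a score of 0 was set to a −log10 p of 323. Neither a genome sequence, an exon map nor protein sequences were used here, so exon length, motifs and UTRs were not analysed. Span stood in for exon length in the comparison of like-sized genes.

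The genes, lists and settings were chosen with earlier results of these data known. Named genes are the 10 genes, and of 3 further lists the 3 genes with the most peaks (ties by score), those tied with them in number, and those without a peak. Functions were tested on simulated data. Python 3.11.15, pandas 2.3.3, SciPy 1.17.1 and matplotlib 3.10.9 were used.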

Additional observations from a re-analysis of the deposited data

How the results depend on the processing

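The number of peaks of the 10 genes was 55 after merging overlapping peaks of a gene and without peaks that overlap the opposite strand. It was also 55 in the first part of the list alone, before any chromosome recurs. None of the 55 peaks was affected by these settings, so they could not change the number. The number fell to 33 with peaks at or under the median score. The same restriction left 5 of the 10 genes above the median number of peaks of their strand in place of 10. It left 36 in place of 50 of the 62 genes in the 3 further lists with a peak. The share in the final 10% of the span was 24.2% under it, and widening the final part to 20% gave 43.6%, by construction. With peaks at or under the median score the share in 1 block was 81.8%, within its interval. Merging and leaving out opposite-strand overlaps could not change this share, since they affected none of the peaks. Joining peaks 150 or 300 bases apart was chosen after seeing the data.

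No paired analysis was possible because the 4 libraries share a single p-value at each peak; replicates were therefore neither blocked nor left out. Peaks per kb of exon or coding length were not computed, since no exon map or protein length was used here. Unknown depth limits what a missing or weak peak can show.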
